A study of Mus musculus with 8 samples.

Results

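The genes of the mouse major histocompatibility complex (MHC) and of antigen processing were examined in CD44hi and CD44lo cells of T cell lymphoma lines. They were taken as every gene whose only symbol in the platform annotation starts with H2-, together with 17 named genes of peptide supply, assembly and transcriptional control. Of the 12393 genes that the arrays measured with a probe set of 1 symbol, 36 belong here, namely 21 H2 genes and 15 of the 17 named genes. Psme2 and Nlrc5 had no probe set with 1 symbol and are not analysed here. The members fall into 13 class I heavy chain genes, 10 genes of the class I pathway, 8 class II genes, 4 regulators, and H2-Ke6, which lies among the H2 genes but codes for a steroid dehydrogenase. In the RefSeq table H2-D4, H2-Q5, H2-Bl and H2-Ea, 4 of the members, are transcribed pseudogenes.

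The samples were 4 arrays of CD44hi cells and 4 of CD44lo cells, both purified from stable mouse T cell lymphoma lines deficient in Snf5, a part of the SWI/SNF chromatin remodeller that cells of both groups lack. CD44 is a hyaluronan receptor that marks activated and memory T cells and is the marker by which the cells were separated. The labels give neither the mouse strain nor the number of lines, and nothing in them says that the replicates of a group are separate cultures, so each p-value rests on array-to-array spread that may be technical. Total RNA was measured on arrays of the Affymetrix Mouse 430A 2.0 type. All values below are log2 intensities of the deposited signals.

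Class I molecules pair a polymorphic heavy chain with beta-2 microglobulin (B2m) and show peptides from inside the cell to CD8 T cells. The immunoproteasome cuts the peptides, the TAP1 and TAP2 subunits of the transporter carry them into the endoplasmic reticulum, and tapasin (Tapbp) with the disulfide isomerase Pdia3 loads them. Class II molecules show peptides from endosomes to CD4 T cells, with the invariant chain (Cd74) and the peptide editor DM as helpers and the regulator Ciita as the switch of transcription. Mouse T cells carry class I and normally make little class II.

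Array medians lay between 320.3 and 339.1 on the linear scale. Cd44 was higher in CD44hi on every array, by 5.89 on the log2 scale (SE 0.23), as the sort requires. The T cell markers Cd3d and Cd8a lay at 14.12 to 14.17 and 13.81 to 13.94 in CD44hi, against 14.17 to 14.21 and 13.81 to 13.93 in CD44lo, whereas Cd4, Thy1 and Cd2 were dim in both groups, with means of 4.51 for Thy1 and up to 5.80 for the others. Arrays numbered 1 and 3 resembled each other, as did those numbered 2 and 4, in both groups. RNA quality was read from Gapdh, whose 3' control probe set exceeded its 5' one by a log2 value of 0.760 to 0.877 in CD44hi and 0.650 to 0.730 in CD44lo, so the groups did not overlap. Its part in the results below was not tested. In RNA from many cells, fewer cells of a type and less RNA per cell cannot be told apart.

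Of the 36 members, 2 were higher in CD44hi, the class I heavy chain gene H2-Q10 and the transporter gene Tap2, and 0 were lower (limma, Benjamini-Hochberg adjusted p under 0.05 over all genes). That is 5.56% of the members, against 3.81% of all genes tested (2.03% higher and 1.78% lower), a share near the background. With the replicate number as a block the same 2 members were called as higher and 0 as lower, against 3.08% and 3.11% of all genes. At an unadjusted p under 0.05 there were 5 members, the others being H2-T3, H2-Oa and Rfxap, and 12.6% of all genes. The CD44hi arrays lay above all CD44lo arrays for 3 members, H2-Q10, Tap2 and H2-Oa, and below them for 1, H2-T3, as held for 5.29% and 5.0% of all genes. The median log2 difference over the members was 0.02, beside -5.9e-05 over all genes. The CD44hi mean lay within 1.1-fold of the CD44lo mean for 24 of 36 members and for 7929 of 12393 genes.

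**Figure D1:**
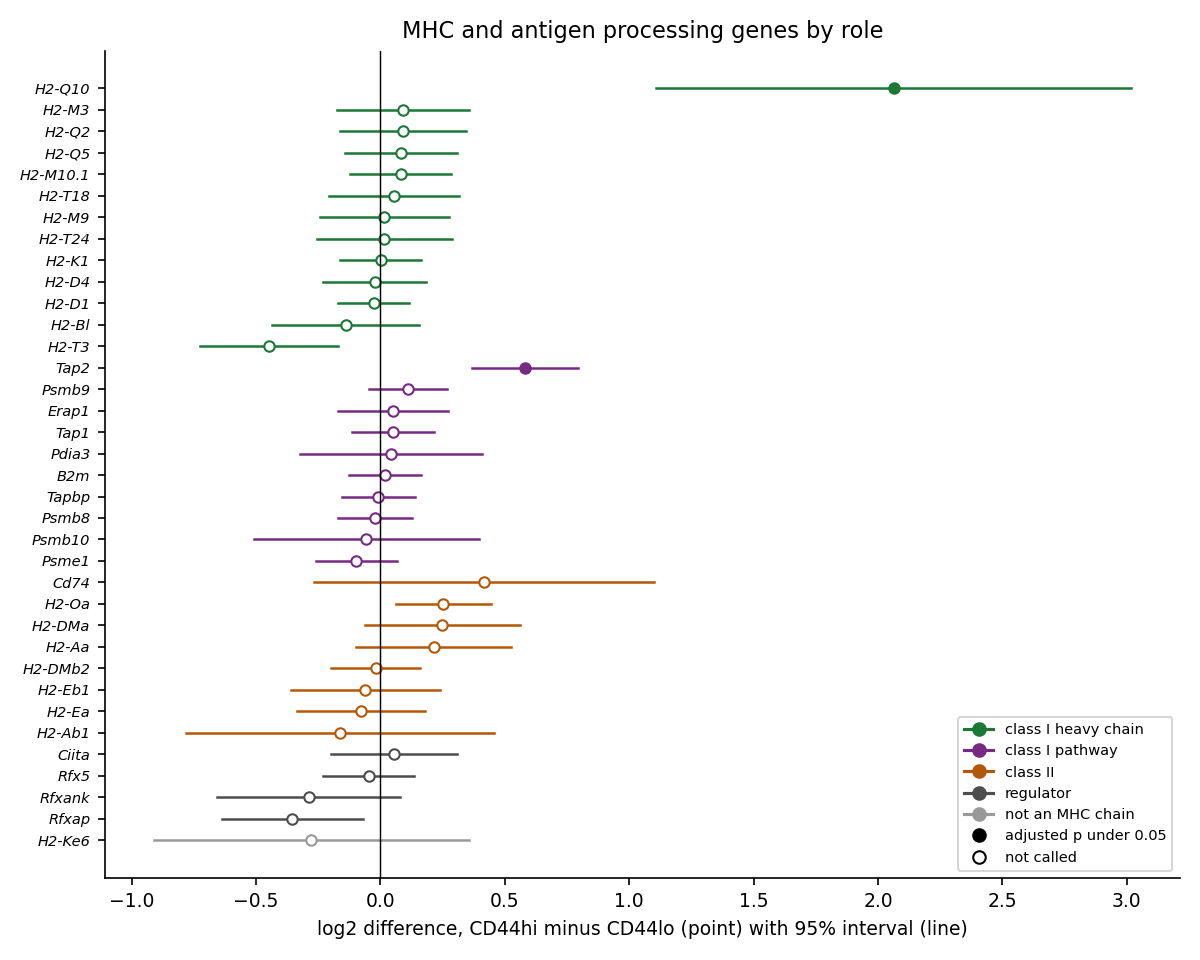
Log2 difference of CD44hi minus CD44lo for the 36 members, grouped and coloured by role, with the 95% interval of the fit as a line; filled points passed adjusted p under 0.05. H2-Q10 at 2.06 and Tap2 at 0.58 are the 2 filled points, and most of the other intervals span 0.

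H2-Q10, a nonclassical class I gene whose product is secreted and known mainly from liver, had the largest difference of all members. It stood at 9.47, 9.27, 9.55 and 9.69 in CD44hi replicates 1 to 4, against 6.31, 8.34, 6.87 and 8.21 in CD44lo. The groups did not overlap, the CD44hi arrays lay close together, and CD44lo replicates 1 and 3 were far below CD44lo replicates 2 and 4. It averaged 9.49 ± 0.18 in CD44hi, against 7.43 ± 1.00 in CD44lo (SD, n = 4 each), a 4.18-fold rise with a 95% interval of 2.16 to 8.09 (log2 difference 2.06, SE 0.42, limma adjusted p = 0.0289). By replicate number the difference was 3.16, 0.92, 2.68 and 1.49. It averaged 2.92 (SE 0.19) for numbers 1 and 3 and 1.21 (SE 0.17) for numbers 2 and 4, called in each pair taken alone, and the difference between them passed a limma interaction test (1.72, SE 0.29, adjusted p = 0.0431). The call was lost when CD44hi replicate 1, 2, 3 or 4 or CD44lo replicate 3 was left out, with differences of 1.87 to 2.14 and adjusted p of 0.0667 to 0.0916 by limma. H2-Q10 has 1 probe set with a single symbol, and since class I genes are close paralogs, cross-hybridisation was not tested.

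The classical heavy chain genes H2-K1 and H2-D1 were not called. H2-K1 stood at 14.06, 14.19, 14.01 and 14.14 in CD44hi and at 14.03, 14.12, 14.09 and 14.15 in CD44lo. The 2 sets of values overlap fully, and the 95% interval of the log2 difference was -0.16 to 0.16 (limma adjusted p = 0.997). H2-D1 stood at 14.01, 14.01, 13.99 and 14.06 in CD44hi and at 14.02, 14.05, 14.03 and 14.07 in CD44lo, with an interval of -0.17 to 0.12 (limma adjusted p = 0.940). Both genes are highly polymorphic and have several probe sets, 4 for H2-K1 and 9 for H2-D1, of which 0 were called. Over them the difference ran from -0.05 to 0.06 for H2-K1 and from -0.23 to 0.10 for H2-D1. Their means over all arrays ran from 7.23 to 14.10 for H2-K1 and from 4.76 to 14.03 for H2-D1, so some are dim. The probe sets used lay at percentiles 99.3 (H2-K1) and 99.2 (H2-D1) of gene means. How well the arrays resolve differences at such high levels was not tested.

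The upstream sequences of these 3 heavy chain genes are shown because 1 of them was called and the other 2 were not. Each line gives the 250 bases before the annotated start in RefSeq (GRCm38.p6), 5′ to 3′ on the gene's strand, with matches to 4 elements known from class I promoters in capitals: GGGGATTCCCC (the kappa B element of enhancer A, bound by NF-kappaB), AGTTTCACTTC (the interferon response element), TGACGC (the core of site alpha, a CREB/ATF type site) and ATTGG (an inverted CCAAT box, the binding motif of NF-Y), each searched on both strands. The letters of the first and second element were read from the H2-K1 stretch, which therefore holds them by construction. No matches of different elements overlapped.
H2-Q10, chr17:35469839-35470088, plus strand: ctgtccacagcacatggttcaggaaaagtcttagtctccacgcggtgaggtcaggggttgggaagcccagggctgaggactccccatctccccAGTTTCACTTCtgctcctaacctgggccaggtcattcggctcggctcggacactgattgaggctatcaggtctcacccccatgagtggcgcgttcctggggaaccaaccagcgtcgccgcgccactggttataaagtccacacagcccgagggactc
H2-K1, chr17:34000348-34000597, minus strand: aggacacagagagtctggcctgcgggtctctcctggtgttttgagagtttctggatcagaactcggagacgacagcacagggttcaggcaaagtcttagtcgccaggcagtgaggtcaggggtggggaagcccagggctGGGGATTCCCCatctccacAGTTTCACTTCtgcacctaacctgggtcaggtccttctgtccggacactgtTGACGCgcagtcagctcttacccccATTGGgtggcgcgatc
H2-D1, chr17:35262844-35263093, plus strand: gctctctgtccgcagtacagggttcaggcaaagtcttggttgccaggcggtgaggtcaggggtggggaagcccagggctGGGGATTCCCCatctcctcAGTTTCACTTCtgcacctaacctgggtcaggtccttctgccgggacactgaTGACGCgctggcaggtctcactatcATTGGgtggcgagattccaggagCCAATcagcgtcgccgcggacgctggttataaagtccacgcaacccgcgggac

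The H2-K1 and H2-D1 stretches hold all 4 elements in the same order, and the H2-Q10 stretch holds the interferon response element alone. The H2-D1 stretch has a second CCAAT box on the other strand, 53 bases before the start. The elements lie nearer the annotated start in H2-K1, with ATTGG 16 bases before it, against 76 in H2-D1. The H2-K1 stretch thus ends before the place that matches the second box of H2-D1, and that place was not searched in H2-K1. The closest stretch of H2-Q10 to the kappa B element is GAGGACTCCCC, which begins 176 bases before the start and differs by G2A and T6C, counted from 1 at the 5′ end of the element. The kappa B element was found in 0.0304% of 32851 stretches of this length upstream of annotated starts, the interferon response element in 0.0426%, the site alpha core in 6.12% and the inverted CCAAT box in 33.9%. Of the 36 members 25 have an entry in the RefSeq promoter table, and among these the kappa B element stood in 2, the interferon response element in 3, the site alpha core in 4 and the CCAAT box in 18. A match of letters is a description of the reference sequence. The strain of the lines is not given in the labels.

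Of the other nonclassical heavy chain genes 0 were called. H2-T3, which codes for the thymus leukaemia antigen that binds CD8 alpha homodimers, stood at 6.80, 6.73, 7.12 and 7.21 in CD44hi and at 7.37, 7.55, 7.30 and 7.44 in CD44lo. Its CD44hi arrays all lay below the CD44lo arrays, as held in one direction or the other for 10.3% of all genes. The log2 difference of -0.45 (SE 0.12) did not pass (limma adjusted p = 0.10), and it passed without CD44hi replicate 4 (-0.53, limma adjusted p = 0.0485). The second H2-T3 probe set differed by -0.13, at a mean of 4.56 over all arrays. H2-M3, which presents formylated peptides, averaged 10.23 in CD44hi and 10.13 in CD44lo, and H2-T24 9.19 and 9.18. The pseudogene H2-Bl stood at 7.05, 7.15, 6.89 and 7.06 in CD44hi, against 6.88, 7.11, 7.22 and 7.50 in CD44lo. The groups overlap. H2-Q2, H2-M9, H2-M10.1 and H2-T18 had means of 3.86 to 5.35 over all arrays, at or below the brightest of 15 bacterial control probe sets (5.86 at most on any array), so these arrays measured no clear signal for them. Over the 13 heavy chain genes the median difference was 0.02, with 0.083 in numbers 1 and 3 alone, 0.063 with array weights and 0.069 without CD44hi replicate 4.

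Among the class I pathway genes Tap2 alone was called. It stood at 11.68, 11.70, 11.55 and 11.70 in CD44hi, against 10.89, 11.28, 11.07 and 11.07 in CD44lo. The groups did not overlap, and CD44hi was higher at every replicate number. Tap2 rose 1.5-fold with a 95% interval of 1.29 to 1.73 (log2 difference 0.58, SE 0.09, limma adjusted p = 0.0089), by 0.63 at numbers 1 and 3 and 0.53 at numbers 2 and 4. The call held when any 1 array was left out (limma adjusted p of 0.0078 to 0.0353). Within numbers 2 and 4 alone it did not pass (limma adjusted p = 0.0785), and the interaction of group with pair of numbers did not pass either (adjusted p = 0.821). Tap2 has 1 probe set.

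Tap1, the partner subunit of the same transporter, was not called. It stood at 13.47, 13.49, 13.57 and 13.67 in CD44hi and at 13.47, 13.53, 13.49 and 13.51 in CD44lo. The groups overlap, and the log2 difference was 0.05 with an interval of -0.12 to 0.21. The other 3 Tap1 probe sets differed by 0.06 to 0.12, with means over all arrays of 7.63, 4.26 and 3.58. Those at 4.26 and 3.58 lay below the brightest bacterial control value, so they add little on Tap1. The intervals of Tap2 (0.37 to 0.79) and Tap1 do not overlap, and the difference between these 2 genes was not itself tested.

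**Figure D2:**
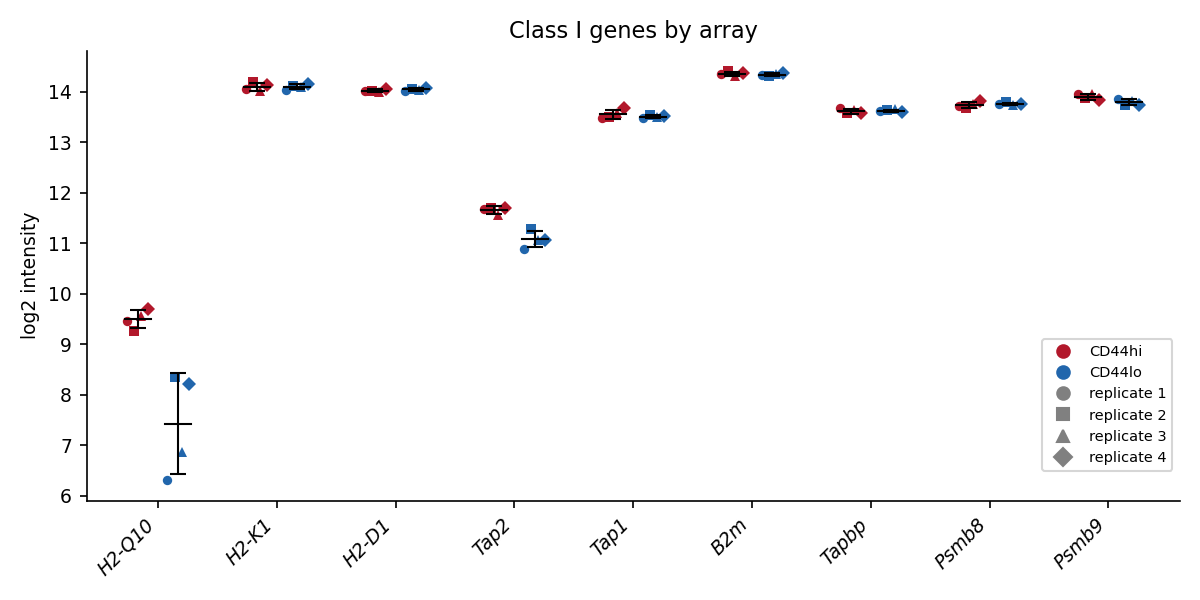
Log2 intensity of 9 class I genes on each array, with CD44hi in red and CD44lo in blue, symbols by replicate number, and bars for mean and SD (n = 4 each). H2-Q10 (9.49 against 7.43) and Tap2 (11.66 against 11.08) separate by group and the other 7 overlap; levels of different genes are not comparable, because each probe set binds with its own efficiency.

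B2m, the invariant light chain of class I, stood at 14.35, 14.40, 14.31 and 14.36 in CD44hi and at 14.33, 14.31, 14.34 and 14.37 in CD44lo. Tapbp stood at 13.67, 13.57, 13.64 and 13.57 in CD44hi and at 13.62, 13.63, 13.65 and 13.60 in CD44lo. Neither gene separated the groups, and the interval of the log2 difference was -0.13 to 0.16 for B2m and -0.16 to 0.14 for Tapbp. The immunoproteasome subunit gene Psmb8 stood at 13.72, 13.68, 13.75 and 13.81 in CD44hi and at 13.76, 13.79, 13.74 and 13.76 in CD44lo. Psmb9, for another inducible subunit, stood at 13.95, 13.87, 13.95 and 13.83 in CD44hi and at 13.86, 13.74, 13.81 and 13.74 in CD44lo. Psmb9 was higher in CD44hi at all 4 replicate numbers, by 0.09 to 0.14, while the groups overlap and the difference did not pass (limma adjusted p = 0.626). Psmb10, the third inducible subunit, stood at 12.69, 11.96, 12.72 and 12.12 in CD44hi and at 12.64, 12.17, 12.64 and 12.25 in CD44lo. Its levels followed the pairs of replicate numbers and not the groups. The proteasome activator subunit Psme1 differed by -0.10, the trimming peptidase Erap1 by 0.05 and Pdia3 by 0.04, none of which passed. Over the 10 pathway genes the median difference was 0.03.

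Leaving aside the probe sets of several symbols, which are described further below, the class II genes held no call. Their median log2 difference over 8 genes was 0.10, with -0.04 in numbers 1 and 3 and 0.17 in numbers 2 and 4, 0.018 with array weights and 0.045 without CD44hi replicate 2. H2-Aa, the alpha chain of I-A, stood at 5.40, 5.92, 5.53 and 5.78 in CD44hi and at 5.57, 5.49, 5.17 and 5.54 in CD44lo. H2-Eb1, the beta chain of I-E, stood at 6.01, 6.53, 5.96 and 6.08 in CD44hi and at 6.05, 6.33, 6.16 and 6.29 in CD44lo. The groups overlap for H2-Aa and H2-Eb1. The means of H2-Aa, H2-Ea and H2-DMb2 were at or below the brightest bacterial control value. H2-Oa, a chain of DO, which restrains DM, stood at 9.13, 9.23, 9.05 and 9.24 in CD44hi, against 8.94, 8.75, 8.99 and 8.96 in CD44lo. Its groups did not overlap, and the difference of 0.25 (SE 0.08) did not pass (limma adjusted p = 0.193).

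H2-Ab1, the beta chain of I-A, and Cd74 differed between the groups in numbers 1 and 3 and much less, or the other way, in numbers 2 and 4. H2-Ab1 stood at 6.25, 7.23, 6.20 and 7.32 in CD44hi, against 7.21, 6.80, 6.97 and 6.68 in CD44lo. CD44hi was thus the lower group in replicates 1 and 3 and the higher one in replicates 2 and 4. The CD44lo arrays also split by pair, the opposite way to the CD44hi arrays. The difference was -0.86 (SE 0.10) in numbers 1 and 3 alone (limma adjusted p = 0.0146) and 0.54 (SE 0.11) in numbers 2 and 4 alone (limma adjusted p = 0.0624), and the interaction passed (-1.40, SE 0.15, limma adjusted p = 0.0113). The other 2 probe sets of H2-Ab1 were dimmer. By replicate number they differed by -0.18, 0.07, -0.10 and 0.02 and by 0.05, 0.11, -0.65 and 0.17. The first kept the signs at a much smaller size, and the second had the opposite sign at number 1. The pattern at its full size thus rests on 1 of 3 probe sets.

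Cd74 stood at 7.67, 6.47, 7.74 and 6.50 in CD44hi, against 6.73, 6.46, 6.87 and 6.66 in CD44lo. CD44hi replicates 1 and 3 were the 2 highest arrays, and the other 6 lay between 6.46 and 6.87. Cd74 has 1 probe set with a single symbol, so its pattern could not be compared between probe sets. The difference was 0.90 (SE 0.08) in numbers 1 and 3 alone (limma adjusted p = 0.0073) and -0.07 (SE 0.12) in numbers 2 and 4 alone, and the interaction passed (0.98, SE 0.14, limma adjusted p = 0.0288). Taken alone, numbers 1 and 3 called 3 members higher (H2-Q10, Tap2 and Cd74) and 2 lower (H2-Ab1 and Rfxap), against 3.41% and 3.63% of all genes, or 7.04% in all. Numbers 2 and 4 alone called 1 higher (H2-Q10) and 0 lower, against 2.47% and 2.15%, or 4.62% in all. Of 36 members 3 passed the interaction test, H2-Q10, H2-Ab1 and Cd74, or 8.33%, against 1.52% of all genes. H2-DMa, a chain of DM, stood at 9.32, 9.76, 9.32 and 9.84 in CD44hi, against 9.37, 9.15, 9.38 and 9.34 in CD44lo. Its CD44hi arrays were higher in replicates 2 and 4 only, a difference of 0.56 there and -0.06 in numbers 1 and 3, and the interaction did not pass (limma adjusted p = 0.0709). The labels do not say what the numbers stand for, so what sets the pairs apart is not given.

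**Figure D3:**
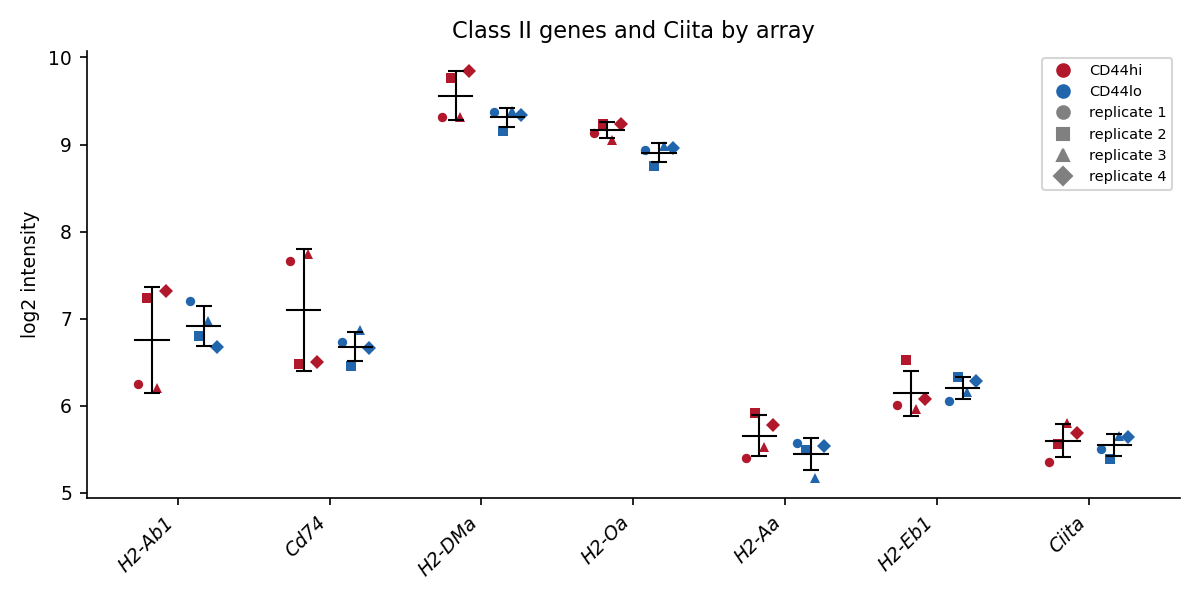
Log2 intensity of 6 class II genes and Ciita on each array, with CD44hi in red and CD44lo in blue, symbols by replicate number, and bars for mean and SD (n = 4 each). In CD44hi, H2-Ab1 is low and Cd74 high in replicates 1 and 3 (circles and triangles); in CD44lo, H2-Ab1 is higher in those replicates (7.21 and 6.97) than in replicates 2 and 4 (6.80 and 6.68).

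**Figure D4:**
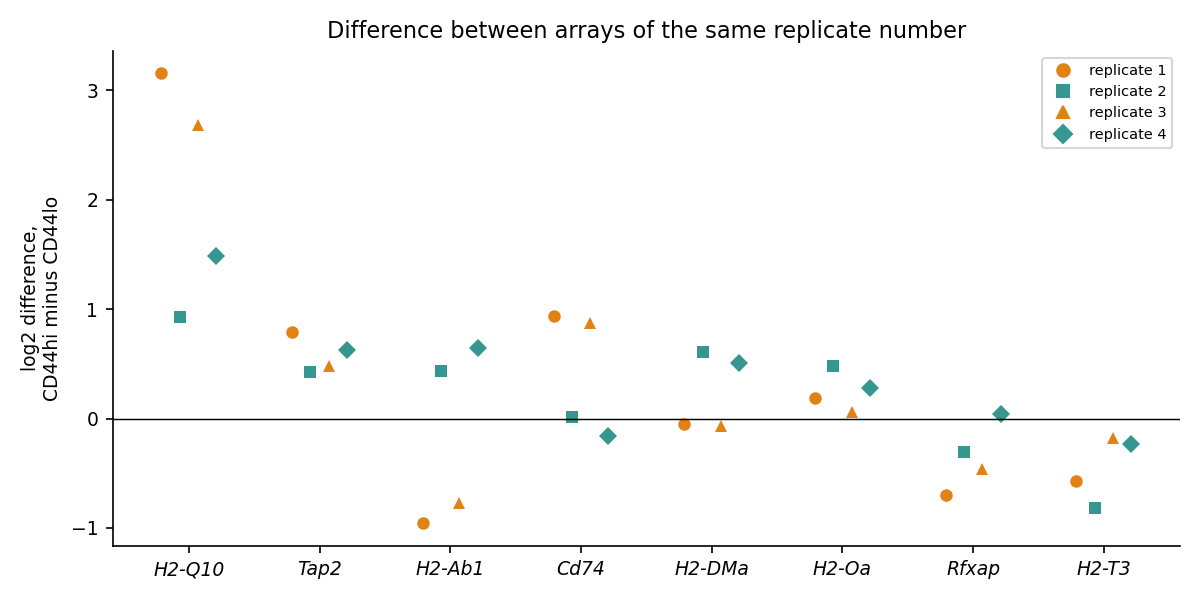
Log2 difference of CD44hi minus CD44lo at each replicate number for 8 members, with numbers 1 and 3 in orange and 2 and 4 in green. H2-Q10 and Tap2 are above 0 at all 4 numbers, whereas H2-Ab1 lies at -0.96 and -0.77 for numbers 1 and 3 and at 0.43 and 0.64 for numbers 2 and 4.

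Markers of cells that carry much class II were near background. Of 8 B cell markers 7 were measured, 0 were called, and their summed linear intensity was 299.8 to 329.1 in CD44hi and 274.2 to 301.1 in CD44lo. Of these, 6 had a mean at or below the brightest bacterial control value. For 6 of 8 dendritic cell markers the sum was 212.8 to 266.4 in CD44hi and 205.8 to 267.4 in CD44lo, with 4 at or below that value and 0 called. For 7 of 9 macrophage and monocyte markers it was 459.4 to 1447 in CD44hi and 472.5 to 1050.2 in CD44lo, with 6 at or below that value. The exception among these was Cd68, at 8.01, 10.23, 8.20 and 10.29 in CD44hi and at 8.20, 9.75, 8.23 and 9.76 in CD44lo. Cd68 thus followed the pairs of numbers in both groups, as did the log2 excess of the 3' over the 5' control probe set of Actb, at 0.380 to 0.532 in numbers 1 and 3 and at 0.558 to 0.795 in numbers 2 and 4. That excess was also larger in CD44hi than in CD44lo at each of the 4 numbers, as it was for Gapdh. The macrophage marker Lyz1, at or below the brightest bacterial control value, stood at 5.48, 4.82, 5.57 and 5.34 in CD44hi, against 4.96, 4.78, 4.75 and 4.98 in CD44lo. Like Cd74, it was highest in CD44hi replicates 1 and 3. It passed in numbers 1 and 3 alone (0.67, limma adjusted p = 0.0258) and not over all arrays (0.247). The rest of that marker list did not share a direction. In numbers 1 and 3 alone Lyz2, Fcgr1 and Csf1r differed by 0.27, 0.15 and 0.06. Cd14, Adgre1 and Cd68 differed by -0.32, -0.26 and -0.11 there. Irf8, a transcription factor of myeloid and B cells from the MHC transcription list, stood at 6.34, 5.27, 6.53 and 5.41 in CD44hi, against 5.79, 4.999, 5.80 and 5.36 in CD44lo. It too passed in numbers 1 and 3 alone (0.65, limma adjusted p = 0.022) and not over all arrays (0.736). The dendritic cell marker Batf3 stood at 6.10, 6.35, 5.95 and 6.37 in CD44hi, against 5.63, 5.84, 5.90 and 5.95 in CD44lo. All 4 CD44hi values of Batf3 lay above the CD44lo values, by 0.36 on average, without passing (limma adjusted p = 0.181). Among the 6 dendritic cell markers measured, Batf3 included, the difference was above 0 for 2 and below 0 for 4, with a median of -0.05. The part of these markers and of RNA quality in the values of H2-Ab1, Cd74 and H2-DMa was not tested. The B cell marker Ms4a1 stood at 4.39, 5.33, 4.25 and 6.01 in CD44hi, against 3.71, 3.94, 3.63 and 3.44 in CD44lo. Its groups did not overlap, and it did not pass (limma adjusted p = 0.0961). In each pair of numbers taken alone Ms4a1 passed (limma adjusted p = 0.0178 and 0.0172). Among the 7 B cell markers measured, Ms4a1 included, the difference was above 0 for 4 and below 0 for 3, with a median of 0.07.

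Of the 4 regulators 0 were called. Ciita stood at 5.36, 5.56, 5.80 and 5.69 in CD44hi and at 5.50, 5.39, 5.65 and 5.64 in CD44lo, with a mean below the brightest bacterial control value. The RFX complex binds the X box of MHC promoters, and its 3 subunits were measured. Rfx5 averaged 11.69 in CD44hi and 11.74 in CD44lo. Rfxap averaged 10.62 ± 0.26 in CD44hi, against 10.97 ± 0.06 in CD44lo (SD, n = 4 each) without passing (log2 difference -0.35, limma adjusted p = 0.228), and it passed as lower without CD44hi replicate 4 (-0.47, limma adjusted p = 0.0316) and with array weights (-0.48, limma adjusted p = 0.0129). Rfxank was lower in CD44hi at all 4 numbers, with differences of -0.38 to -0.16, and did not pass (log2 difference -0.29, limma adjusted p = 0.573). H2-Ke6 averaged 11.76 in CD44hi and 12.04 in CD44lo without passing (limma adjusted p = 0.831, or 0.082 with the replicate block).

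A wider list of 72 symbols for peptide supply, class I folding, class I-like molecules outside the H2 family, endosomal proteases, class II turnover, MHC transcription and interferon input had 63 measured genes. Of these Rel was higher and Cd1d1 lower in CD44hi, 3.17% against 3.81% of all genes. With the replicate number as a block 6 were higher and 4 lower, 15.9% against 6.19% of all genes. The list was chosen with earlier results of these data known, and the block was chosen from the values. The larger share with the block is therefore no test of the list. The median difference of the list was 0.01.

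Rel, an NF-kappaB subunit, stood at 9.31, 10.02, 9.35 and 9.83 in CD44hi, against 8.71, 8.61, 8.80 and 8.52 in CD44lo. The groups did not overlap. The log2 difference was 0.97 (SE 0.17, limma adjusted p = 0.0117), with 0.58 in numbers 1 and 3 and 1.37 in numbers 2 and 4 and a limma interaction adjusted p of 0.0431. Cd1d1, which presents lipids to natural killer T cells, stood at 10.23, 10.25, 10.46 and 10.21 in CD44hi, against 10.83, 11.03, 10.87 and 10.75 in CD44lo. It fell by 0.58 on the log2 scale (SE 0.09, limma adjusted p = 0.0076), again with no overlap, and did not pass in either pair of numbers taken alone (limma adjusted p = 0.0537 and 0.0556). Mr1, which presents vitamin B metabolites to mucosal-associated invariant T cells, stood at 9.60, 10.12, 9.47 and 9.68 in CD44hi, against 10.25, 10.59, 10.09 and 10.45 in CD44lo. Its difference of -0.63 passed with the replicate block and not without it (limma adjusted p = 0.0053 and 0.0785). The other 5 class I-like genes did not pass in either fit.

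Among the genes of interferon input, Ifng, which codes for interferon gamma, stood at 12.35, 12.92, 12.33 and 12.95 in CD44hi, against 11.94, 12.21, 11.93 and 12.12 in CD44lo. Ifngr2, a chain of its receptor, stood at 8.60, 8.61, 8.38 and 8.28 in CD44hi, against 8.18, 8.01, 7.88 and 7.71 in CD44lo. The groups did not overlap for either gene. The differences of 0.59 for Ifng and 0.52 for Ifngr2 passed with the replicate block (limma adjusted p = 0.0179 and 0.0074) and not without it (0.108 and 0.0531). Nfya, a subunit of NF-Y, stood at 11.15, 11.14, 10.92 and 10.74 in CD44hi, against 10.72, 10.53, 10.65 and 10.31 in CD44lo, a difference of 0.43 with no overlap. The tapasin relative Tapbpl, which edits class I peptides, stood at 9.85, 9.11, 9.98 and 9.16 in CD44hi, against 9.40, 8.75, 9.40 and 8.74 in CD44lo. It was higher in CD44hi at each number, by 0.45 on average. Both passed with the block (limma adjusted p = 0.0257 and 0.0143) and not without it (0.120 and 0.561). Irf1, a transcription factor of the interferon response, averaged 13.08 in CD44hi, against 12.78 in CD44lo, and passed in neither fit (limma adjusted p = 0.174, or 0.0887 with the block).

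Of 9 endosomal genes, the cathepsin genes Ctsl and Ctsh were lower and Ctss was higher with the replicate block and did not pass without it. Ctsl differed by -0.38, Ctsh by -0.41 and Ctss by 0.51, with limma adjusted p of 0.022, 0.0343 and 0.0291 in that fit and 0.387, 0.0731 and 0.149 without the block. In numbers 1 and 3 alone Ctsl and Ctss passed too (limma adjusted p = 0.0303 and 0.0197). Ctss, which trims the invariant chain in antigen-presenting cells, and Ctsh had means of 4.12 and 5.08 over all arrays, below the brightest bacterial control value. None of the 12 genes of peptide supply, the constitutive proteasome subunits among them, passed in either fit, and their differences ran from -0.31 to 0.07. Of the 7 class I folding genes, Tapbpl had the call given above and the others passed in neither fit, with differences of -0.20 to 0.05. P4hb, a disulfide isomerase of the endoplasmic reticulum, stood at 13.20, 13.02, 13.16 and 13.06 in CD44hi, against 13.29, 13.29, 13.30 and 13.36 in CD44lo. All its CD44hi arrays lay below the CD44lo arrays, without passing (-0.20, limma adjusted p = 0.234).

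**Figure D5:**
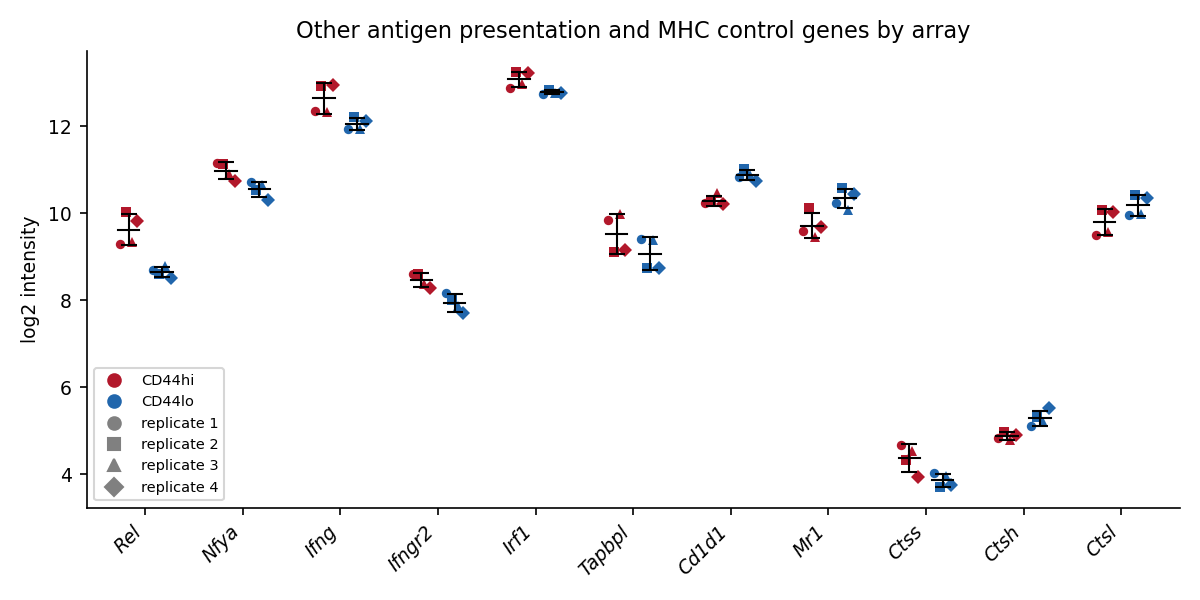
Log2 intensity of 11 genes of the wider list on each array, with CD44hi in red and CD44lo in blue, symbols by replicate number, and bars for mean and SD (n = 4 each). Rel, Nfya, Ifng, Ifngr2 and Irf1 lie higher and Cd1d1 and Ctsh lower on all CD44hi arrays, and for Tapbpl, Mr1, Ctsl and Ctss the groups overlap while CD44hi differs in 1 direction at every number.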

How the data were processed

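Titles gave the group and replicate number of each of 8 arrays. The authors deposited 1 intensity per probe set, preprocessed with RMA per the labels' protocols. The version and options of RMA were not stated there. The intensities run from 7.61 to 36128, so log2 was taken of them as linear values, with no pseudocount. RMA shrinks differences near background. Of 22690 probe sets 20380 carry 1 symbol in the platform annotation, and the probe set of highest mean stood for each of 12393 genes. Symbols of all 36 members matched RefSeq (GRCm38.p6) by gene identifier.

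CD44hi was set against CD44lo in limma 3.58.1 (lmFit, then eBayes; R 4.3.3) without covariates, and p-values were adjusted over all genes by Benjamini-Hochberg. The fit was tested on simulated data with known differences. There each array varied independently, so that test does not cover the shared deviation of same-numbered arrays given below. The number of arrays limits the precision. Per-array values are given for called members, for a fixed set of 15 core genes, of which H2-T23 is not analysed here, and for the 5 largest differences in class I and in class II. The members and lists were chosen with earlier results of these data known, and the promoter elements, Cd68, Ms4a1, Lyz1, Batf3, Irf8, Irf1 and P4hb were named after values were seen.

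Same-numbered arrays deviated together, with correlations over genes of 0.574, 0.404, 0.533 and 0.531 for numbers 1 to 4, all over 0.1. Arrays of 1 number were therefore treated as pairs in the replicate block and in the differences by replicate number. The main fit, which gave the calls unless another fit is named, ignores this pairing. That pairing comes from the values, not the labels, and numbers 1 and 3 correlated with each other nearly as well (0.521 and 0.471). CD44hi replicate 4 correlated with CD44lo replicate 2 at 0.458, above the 0.404 of number 2, and CD44hi replicate 2 with CD44lo replicate 4 at 0.372. The values thus set pairing by number only weakly apart from pairing within numbers 1 and 3 or 2 and 4. Calls made with the block alone rest on that choice. Alternatives were the block, the pairs of numbers, other scaling, filter, probe set and variance choices, array weights and leaving out each array.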

Additional observations from a re-analysis of the deposited data

Results flagged for a closer look

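In 4 of 92 groups of 4 arrays 1 array lay far from the other 3, where chance gives about 1 in 20 groups. CD44hi replicate 3 was at 11.55 for Tap2 against 11.68 to 11.70 in the others, and at 10.46 for Cd1d1 against 10.21 to 10.25. CD44hi replicate 4 was at 5.48 for H2-DMb2 against 5.61 to 5.63, and CD44lo replicate 4 at 5.76 for H2-Q5 against 6.10 to 6.16.

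The difference between CD44hi and CD44lo itself varied between numbers 1 and 3 and numbers 2 and 4 by the limma interaction test for 4 of the genes described. The difference in numbers 1 and 3 minus that in numbers 2 and 4 was 1.72 for H2-Q10, -1.40 for H2-Ab1, 0.98 for Cd74 and -0.79 for Rel, with adjusted p of 0.0431, 0.0113, 0.0288 and 0.0431.

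The annotation joins an H2 or other member symbol with further symbols for 15 probe sets that the comparisons do not use. Fitted with all probe sets, 1 of them was called, lower in CD44hi with a log2 difference of -0.38. The 15 differences ran from -0.38 to 0.05. The signal of the called probe set cannot be assigned to 1 of its symbols, so it counts in no class above. The absence of calls among class II genes, and of members called lower in CD44hi, therefore does not cover it.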

How the results depend on the processing

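Against 2 members higher in CD44hi, 1 was higher at adjusted p under 0.01 (Tap2) and with arrays numbered 2 and 4 alone (H2-Q10), and 1 to 2 when 1 array was left out. Against 0 lower, 1 was lower with numbers 1 and 3 against 2 and 4 as a block (H2-Ke6) and with array weights (Rfxap), 2 with arrays numbered 1 and 3 alone (H2-Ab1 and Rfxap), and 0 to 2 when 1 array was left out, the 2 being H2-T3 and Rfxap without CD44hi replicate 4. With the replicate block the members called were H2-Q10 and Tap2 as without it (limma adjusted p = 0.0216 and 0.0106), and it changed the call of no other member; the genes of the wider list whose call it changed are given with their values above. The median difference of class I pathway members was 0.03, and 0.00093 to 0.062 (the lowest without CD44lo replicate 2, the highest without CD44hi replicate 2) when 1 array was left out. Leaving out 1 array gave medians of 0.0081 (without CD44lo replicate 2) to 0.069 for class I heavy chain genes and of 0.045 to 0.12 for class II genes; that of the heavy chain genes was 0.0017 with the filter on dim genes, and that of class II 0.058 after quantile normalization. For 46 genes described, 18 alternatives gave 822 values. Among these the call was the same in 773, lost in 8 and gained in 41, a called direction turned in 0, and the sign of an uncalled difference turned in 50. The filter on dim genes removed 6 further values. For genes whose mean lay at or below the brightest bacterial control value, the signal limits what can be seen.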
